A study of Drosophila melanogaster with 2 samples.

Results

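The Enhancer of split complex is a cluster of short genes on chromosome arm 3R of Drosophila melanogaster, and 7 of its genes are described here. The members were chosen by name in the Ensembl annotation: 4 HLH genes, E(spl)m3-HLH, E(spl)m5-HLH, E(spl)m7-HLH and E(spl)m8-HLH, and 3 BFM genes, E(spl)m2-BFM, E(spl)m4-BFM and E(spl)m6-BFM. They are 7 of 13945 protein-coding genes. A region was assigned to a gene when its summit, the position of highest signal, lay between 2000 bp upstream of the gene start and the gene end. The files list genomic regions from chromatin immunoprecipitation sequencing of whole pupae of 48 h, males and females pooled, in 2 biological replicates. The pupae are of 1 transgenic line that carries a GFP fusion at the C terminus of CG8301, and chromatin was sonicated to 200 to 800 bp. All libraries carry the transgene, the labels give 1 group, and no comparison between conditions is possible. The antibody field names CG8301 while the description text calls the libraries an input control, so the regions are not assigned to the fused protein. In chromatin of whole animals, a strong signal in few cells and a weak signal in many cannot be told apart.

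The HLH and BFM genes of the complex are classical targets of Notch signalling. When the receptor Notch is cleaved, its intracellular part joins Suppressor of Hairless, Su(H), on DNA and activates transcription. These HLH and BFM genes respond in the cells around each sensory organ precursor. The HLH genes encode transcriptional repressors of the Hairy family, which recruit the corepressor Groucho through their C-terminal end. The BFM genes encode small Bearded family proteins, which bind the ubiquitin ligase Neuralized and limit signalling by the ligand Delta.

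Of the 7 genes, 3 had a region in the IDR list, against 27.6% of all protein-coding genes. IDR stands for irreproducible discovery rate, and this list holds the 8005 regions that met the authors' requirement of reproducibility between replicates. The genes were E(spl)m2-BFM, E(spl)m3-HLH and E(spl)m7-HLH, with 5 summits in all, and all 5 lay upstream of the genes in intergenic sequence. The bases from 50 bp before to 50 bp after each summit are shown because they are the sequence at which the signal of the complex genes peaked. They are read from the reference assembly of the dm6 build on the plus strand, and capitals mark matches to any of the 9 short words searched below.
E(spl)m2-BFM, chr3R:26017915-26018015, plus strand: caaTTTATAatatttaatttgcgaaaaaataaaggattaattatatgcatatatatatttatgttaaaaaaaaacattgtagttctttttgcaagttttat
E(spl)m2-BFM, chr3R:26019373-26019473, plus strand: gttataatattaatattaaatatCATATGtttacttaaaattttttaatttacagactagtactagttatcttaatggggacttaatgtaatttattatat
E(spl)m3-HLH, chr3R:26020414-26020514, plus strand: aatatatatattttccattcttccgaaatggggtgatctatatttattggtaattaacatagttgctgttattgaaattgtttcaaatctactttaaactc
E(spl)m3-HLH, chr3R:26021334-26021434, plus strand: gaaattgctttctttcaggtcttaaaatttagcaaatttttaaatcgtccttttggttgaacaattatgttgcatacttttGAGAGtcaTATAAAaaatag
E(spl)m7-HLH, chr3R:26036620-26036720, plus strand: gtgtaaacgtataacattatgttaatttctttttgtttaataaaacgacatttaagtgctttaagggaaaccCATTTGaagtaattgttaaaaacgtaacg

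In the first of these windows the word in capitals is TATAAA on the opposite strand, in the second CATATG, a form of the general HLH site CANNTG, and in that of E(spl)m7-HLH CATTTG, another form. The window of the nearer E(spl)m3-HLH summit holds GAGAG and TATAAA. The window of the more distant E(spl)m3-HLH summit holds no match.

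E(spl)m3-HLH had the strongest region of the 7 genes. It spanned 26021118 to 26021671 on 3R and its summit at 26021384 lay 439 bp upstream of the gene start (FBgn0002609, 26021823 to 26023127, plus strand). The authors' signal value, of unstated scale and comparable only within a list, was 1266 in the IDR list, where the region ranked 454. In replicate 1 the signal was 577, the rank 335 and the summit 404 bp upstream. In replicate 2 the signal was 697, the rank 559 and the summit 443 bp upstream. Both replicate lists hold 30000 regions, so these ranks put it among the strongest regions of either library. A further IDR region had its summit at 26020464, 1359 bp upstream of the gene, with a signal of 534 and rank 1939. Replicate 1 listed it with a signal of 180 at rank 2468 and replicate 2 with a signal of 354 at rank 1722. In each list the IDR summit nearer to the start was the stronger of the pair. Replicate 2 alone had a further summit on the nearer region, 239 bp upstream, with a signal of 63.9 at rank 10351.

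E(spl)m7-HLH had 1 IDR region, from 26036440 to 26036877, with its summit at 26036670, 368 bp upstream of the start (FBgn0002633, 26037038 to 26038019, plus strand). Its signal was 1054 and its rank 661. The replicate summits lay 370 and 363 bp upstream, with signals of 501 and 551 at ranks 455 and 894, so the position differed by 7 bp between the replicates. A weaker summit on the same replicate 1 region, 166 bp upstream, ranked 13909 and had no pooled summit within 200 bp.

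E(spl)m2-BFM was the only one of the 3 listed BFM genes with an IDR region. The nearer summit, at 26017965, was 495 bp upstream of the start (FBgn0002592, 26016514 to 26017470, minus strand), with a signal of 598 and rank 1659. The signal was 261 in replicate 1, at rank 1505, and 331 in replicate 2, at rank 1892. The farther summit, at 26019423, was 1953 bp upstream, just inside the 2000 bp limit, with a signal of 653 and rank 1472. The signal was 236 in replicate 1, at rank 1750, and 417 in replicate 2, at rank 1373. The order of these summits by rank differed between the replicates. The farther summit lies nearer to another annotated start: it was 114 bp upstream of the noncoding RNA gene lncRNA:CR43643 (26018027 to 26019309, minus strand). Replicate 1 alone had a weak summit in an exon of this RNA gene, 710 bp upstream of E(spl)m2-BFM, at rank 16550. Replicate 2 alone had another there, 1357 bp upstream of E(spl)m2-BFM, at rank 28366.

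E(spl)m4-BFM, E(spl)m5-HLH, E(spl)m6-BFM and E(spl)m8-HLH had no IDR region. E(spl)m4-BFM (FBgn0002629, 26023821 to 26024579, minus strand) had none in any of the 4 lists, and the nearest IDR summit was 3195 bp from its start. E(spl)m8-HLH (FBgn0000591, 26040240 to 26041008, plus strand) had 1 weak region, in its coding exon 528 bp downstream of the start, at rank 23645 of replicate 1 and in no other list. E(spl)m5-HLH (FBgn0002631, 26028854 to 26029735, minus strand) had a pooled region in its coding exon, rank 28830, which neither replicate listed within 200 bp. It shared a second pooled region with its neighbour E(spl)m6-BFM (FBgn0002632, 26032911 to 26034047, plus strand). The summit of that region lay between the genes, 1579 bp upstream of E(spl)m5-HLH and 1597 bp upstream of E(spl)m6-BFM, at rank 22314, and only replicate 1 listed it, at rank 20827. E(spl)m6-BFM had another in its 3' UTR, rank 23236, listed by replicate 2 alone at rank 20190. A weak pooled region 1855 bp upstream of E(spl)m7-HLH, rank 28296, was likewise listed by replicate 2 alone, at rank 25035.

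The IDR list is made up of the 8005 strongest regions of the pooled list and was selected for reproducibility, so its regions differ by definition from the weaker pooled ones in rank, and agreement between the replicates is what the list selects for. The values are given as a description. All 5 IDR regions had a summit within 200 bp in both replicates, the replicate summits were 7 to 42 bp apart, and all 5 ranked within the 8005 strongest regions of each replicate. None of the 4 weaker pooled regions was in both replicates. The deposited q-values of these 4 were 0.13, 0.161, 0.369 and 0.388, while the 5 IDR regions share the top value of the list, which corresponds to 4.29e-05. The 4 weaker regions were each 410 bp wide, the commonest width of the pooled list, held by 75.1% of its regions.

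**Figure D1:**
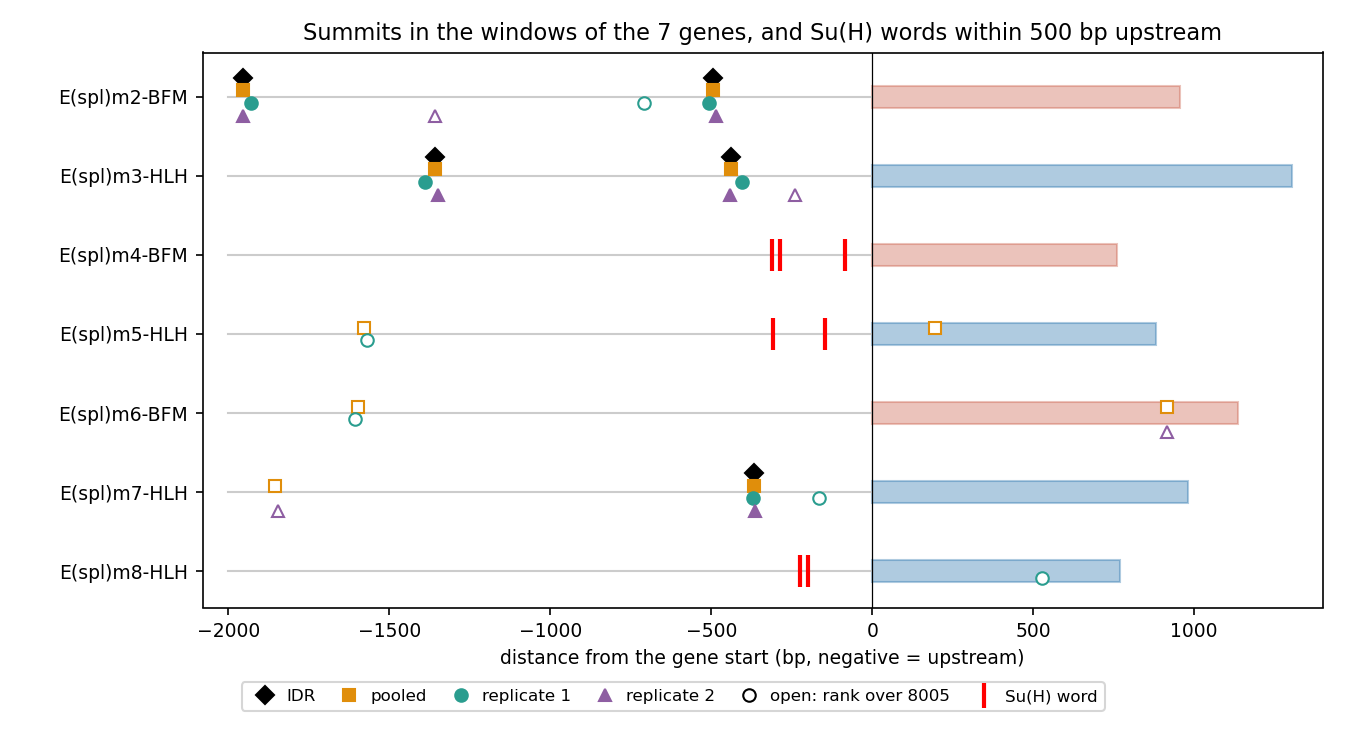
Summit positions in the windows of the 7 genes (x axis, bp from the gene start, negative upstream; 1 row per gene, shaded bar the gene body). Marker shapes stand for the 4 lists, filled markers rank within the 8005 strongest of their list and open markers below; red ticks are Su(H) words within 500 bp upstream. Filled markers occur at E(spl)m2-BFM, E(spl)m3-HLH and E(spl)m7-HLH, where the 4 lists fall together, and red ticks at E(spl)m4-BFM, E(spl)m5-HLH and E(spl)m8-HLH.

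The count was read against all genes searched in the same way. The 27.6% given above is a share of 13945 protein-coding genes, many of which are far longer. The 7 genes each have 1 exon and are at most 1305 bp long, and of the 4016 protein-coding genes no longer than that, 12.8% had an IDR region. E(spl)m2-BFM and E(spl)m3-HLH had 2 summits each, and at least 2 were found at 10.9% of all genes and 1.89% of the short genes. Among the 4002 strongest IDR regions the count was again 3 of 7, against 18.3% of all genes. In the pooled list, 5 of the 7 had a region, against 42.2% of all and 26.5% of short genes. In the whole replicate lists the counts were 6 of 7 in replicate 1 (48.9% of all genes) and 4 of 7 in replicate 2 (43.3%). In the 8005 strongest regions of each replicate the count was 3 in each, against 28.5% and 27.8% of all genes, and these were the genes named from the IDR list. The members are neighbours in 1 cluster and not independent, and no test was made of these counts.

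The 5 IDR regions of the 7 genes lay in the stronger part of the list, while 3 of the 12 IDR regions of the complex, none of them in these windows, ranked between 6879 and 7179 of 8005. The rank percentile, where 100 is the strongest region, lay between 75.8 and 94.3 for the 5 regions with a median of 81.6. Over the 6571 IDR regions in windows of any protein-coding gene the median was 50.8. The strongest summit lay 439 bp upstream for E(spl)m3-HLH and 368 bp for E(spl)m7-HLH, and the nearer E(spl)m2-BFM summit 495 bp. Among all 3851 genes with an IDR region, the strongest summit lay 300 to 500 bp upstream in 5.63%, and among the 515 such short genes in 6.21%. Counted in the same way, the share was 66.7% of the 3 members with an IDR region. The strongest E(spl)m2-BFM summit, 1953 bp upstream, lay outside these bounds. These bounds were chosen after the members' values were seen. No summit of the 5 lay in a transcribed part of the 7 genes.

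Along the complex the regions were unevenly spread. From the start of E(spl)mdelta-HLH to the end of gro, the Groucho gene at the other end, the complex spans 52291 bp (25997621 to 26049911) and held 11 IDR summits, or 21.0 per 100 kb. The arm 3R held 5.67 per 100 kb and all arms together 5.99. In the pooled list the complex held 29 summits, 55.5 per 100 kb against 21.1 on 3R. Within the complex, 4 of the IDR summits lay in the 4352 bp between the divergent starts of E(spl)m2-BFM and E(spl)m3-HLH, a stretch singled out after its values were seen. It also holds the noncoding RNA genes lncRNA:CR43643 and lncRNA:CR43644. Of these 4 summits, 1 lay 114 bp upstream of lncRNA:CR43643 and 1 lay 308 bp upstream of lncRNA:CR43644, the same summit that is 439 bp upstream of E(spl)m3-HLH. The other two lay 62 bp and 15 bp beyond the 3' ends of these RNA genes, on the side towards E(spl)m2-BFM. A summit here can therefore not be tied to a single gene by position.

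The next IDR summit after E(spl)m3-HLH was that of E(spl)m7-HLH, 15286 bp further on. This was the widest distance between neighbouring IDR summits of the complex, where the median was 2138 bp, and over the whole list the median was 4493 bp. At 5.67 IDR summits per 100 kb, the average spacing on 3R is of similar length. The distance is above both medians. The average is a mean, which a few long distances can raise, so it does not show how common such a distance is on the arm. The stretch contains the bodies of E(spl)m3-HLH, E(spl)m4-BFM, E(spl)m5-HLH and E(spl)m6-BFM, and 7 pooled regions that ranked between 19075 and 28830. The second widest, 8915 bp, contains the HLH genes E(spl)mdelta-HLH, E(spl)mgamma-HLH and E(spl)mbeta-HLH.

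**Figure D2:**
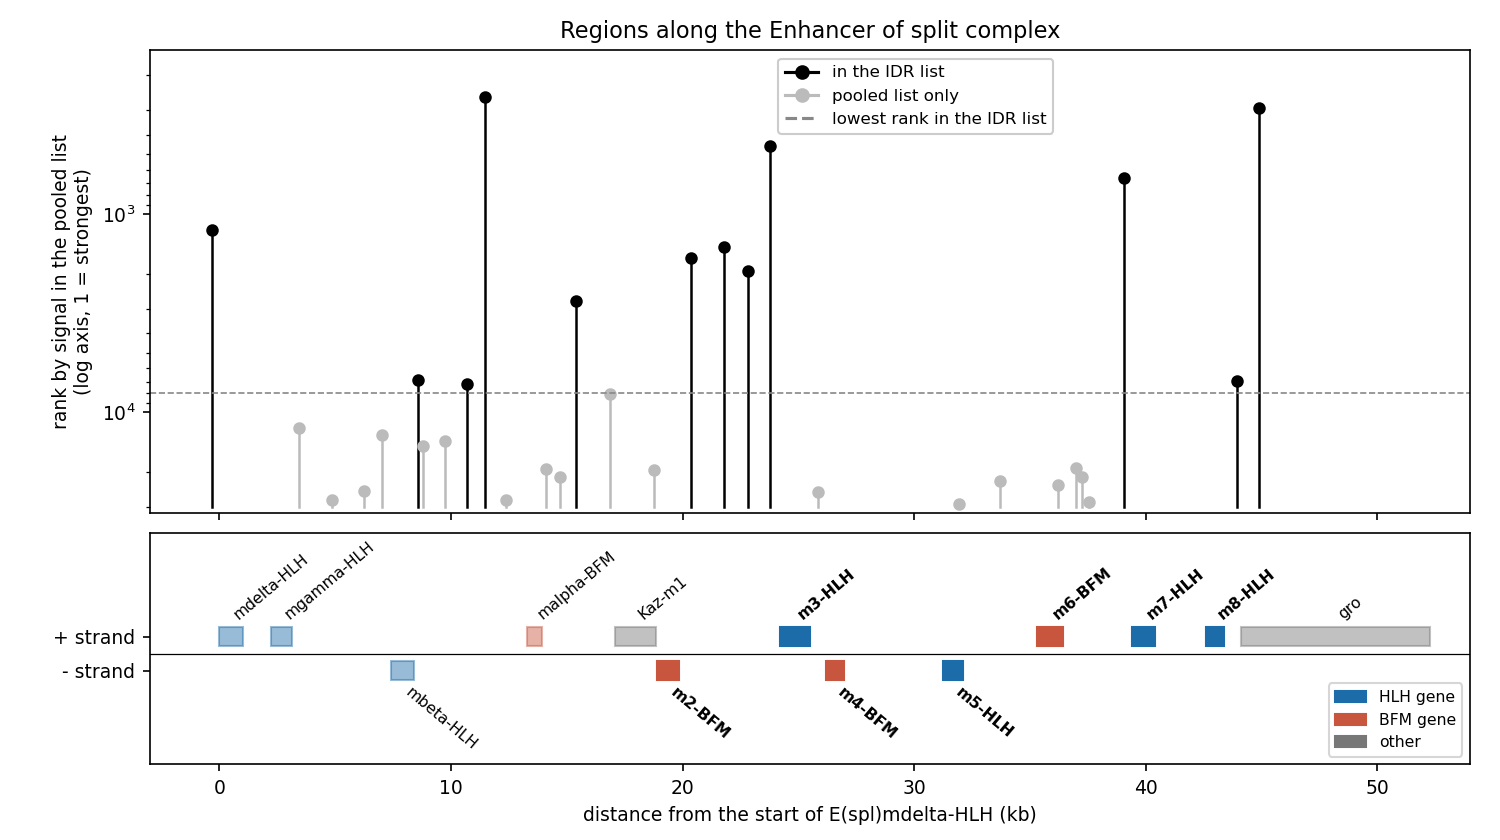
Regions of the pooled list along the complex (x axis, kb from the start of E(spl)mdelta-HLH; y axis, rank by the authors' signal on a log axis, 1 strongest), with the genes below by strand, listed genes in bold. Black regions are in the IDR list. Black regions crowd between E(spl)m2-BFM and E(spl)m3-HLH, and none stands in the 15286 bp from there to the region before E(spl)m7-HLH.

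The other 6 genes of the complex were searched for comparison, and 5 had an IDR region in their window. By the same rule it was 27.6% of all protein-coding genes and 12.8% of the short genes counted above. Only 4 of these 6 are short by that limit, and gro, 1 of the 5, is 8176 bp long, so its window is longer. These genes too are neighbours in 1 cluster, and no test was made. E(spl)malpha-BFM, a further Bearded family gene, had the strongest region of the complex 1802 bp upstream, with a signal of 1611 and rank 259. At gro an intron held the strongest summit, 775 bp past the gene start, with a signal of 1537 and rank 294. E(spl)mdelta-HLH had a region 344 bp upstream, signal 755 and rank 1205. Kaz-m1, known also as E(spl)m1 and named for a Kazal protease inhibitor domain, had 1 with its summit 1725 bp upstream, signal 403 and rank 2763. E(spl)mbeta-HLH had a weak one 169 bp upstream, signal 171 and rank 6879, and E(spl)mgamma-HLH had no region in its window in any list. Among the 12 IDR regions of the complex, including that upstream of E(spl)mdelta-HLH, 9 were among the 8005 strongest of both replicates.

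**Figure D3:**
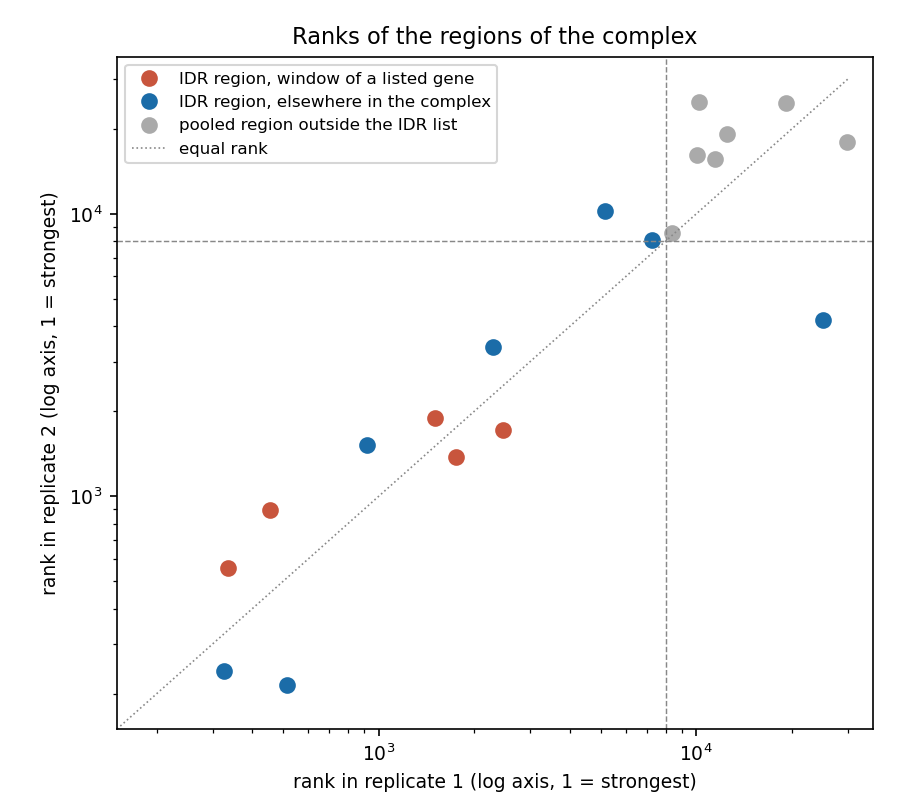
Rank in replicate 1 (x axis) and replicate 2 (y axis), both log axes with 1 strongest, of pooled regions of the complex that have a summit within 200 bp in both replicates. Dashed lines mark the 8005 strongest regions of each list. The 5 IDR regions of the listed genes rank between 335 and 2468 in replicate 1 and between 559 and 1892 in replicate 2.

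Words of factors such as Su(H), proneural proteins and E(spl) repressors were searched on both strands of the windows shown above. The Su(H) site was searched as CGTGAGAA, CGTGGGAA, TGTGAGAA and TGTGGGAA, and the proneural E-box, bound by HLH activators such as Achaete and Scute, as CAGCTG or CAGGTG preceded by A or G. The site of Hairy and E(spl) repressors was searched as CACGTG and CACGCG, the N-box as CACNAG, the core of the replication-related element DRE as TATCGA and the word of the early activator Zelda as CAGGTAG. None of the 5 windows held any of these. Over all 8005 IDR windows the shares with a match were 0.662% for Su(H), 2.69% for the proneural E-box, 1.42% for the Hairy-related site, 7.87% for the N-box, 4.01% for DRE and 0.312% for Zelda. At these shares, 5 windows without a match to a given word are not unusual. No match says only that these letters are not in these windows. The general site CANNTG, which includes the proneural E-box and CACGTG, was in 2 of the 5 windows and in 32.6% of all IDR windows. The word GAGAG of GAGA factor was in 1 of 5 and 9.33%, and TATAAA in 2 of 5 and 23.8%.

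The windows were rich in A and T. Their GC content lay between 15.8% and 26.7%, below the median of 30.7% over all IDR windows, of which 31.1% had 26.7% or less. The stretch between the starts of E(spl)m2-BFM and E(spl)m3-HLH as a whole had 45.8% and arm 3R 42.6%. The 4 windows in that stretch were thus all lower in GC than the stretch as a whole.

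**Figure D4:**
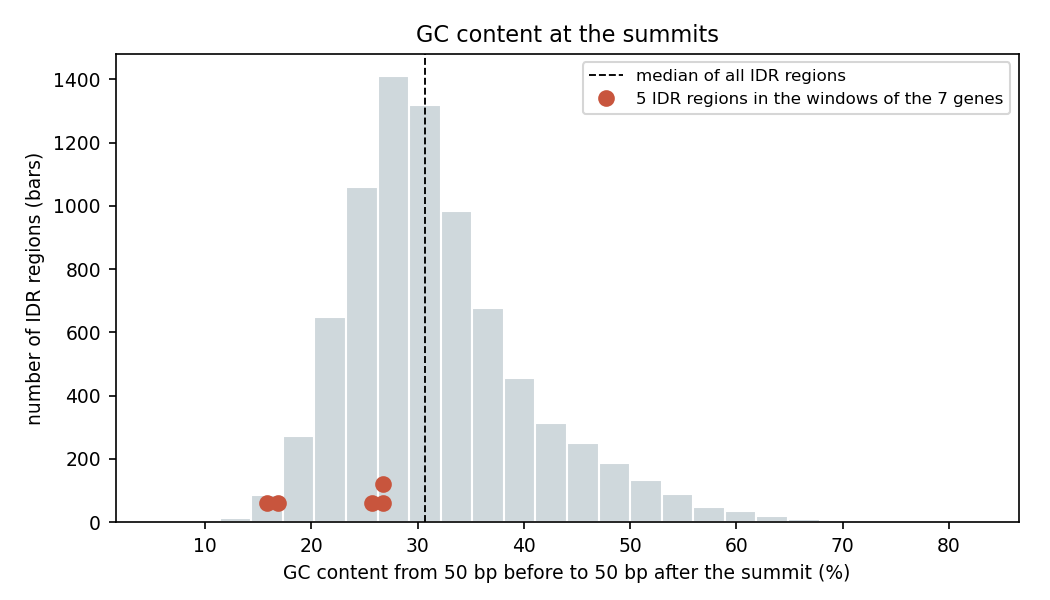
GC content from 50 bp before to 50 bp after the summit (x axis) for all 8005 IDR regions (bars, number of regions) and the 5 IDR regions in the windows of the 7 genes (points, stacked only for visibility). The points lie between 15.8% and 26.7%, left of the dashed median of 30.7%.

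Su(H) words were found upstream of 3 members, none of which had an IDR region. In the 500 bp upstream of the start, E(spl)m4-BFM had 3 Su(H) words, E(spl)m5-HLH 2 and E(spl)m8-HLH 2, and the other 4 members had none. Only the Su(H) words listed above were searched, so a site of another form would be missed. Of all protein-coding genes, 5.06% had at least 1 such word and 0.237%, 33 genes, at least 2. The words are shown with their surroundings on the strand of each gene, with the Su(H) letters in capitals, since they are the best known control sites of these genes and none lies near an IDR summit.
E(spl)m4-BFM, chr3R:26024872-26024901, minus strand: cgaaccgaaacTGTGGGAActggtagaaag
E(spl)m4-BFM, chr3R:26024847-26024876, minus strand: gaaagtctcgtTTCTCACGatcctgcagca
E(spl)m4-BFM, chr3R:26024644-26024673, minus strand: atccttgtagtTTCCCACActcggtgtttt
E(spl)m5-HLH, chr3R:26030026-26030055, minus strand: tgagcaccacgTTCCCACGtcttggccagc
E(spl)m5-HLH, chr3R:26029863-26029892, minus strand: cttggtttcctTTCCCACGcacgcacagca
E(spl)m8-HLH, chr3R:26040005-26040034, plus strand: agaaaaaattgTGTGAGAAacttactttca
E(spl)m8-HLH, chr3R:26040030-26040059, plus strand: tttcagctcggTTCCCACGccacgagccac

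Counted from the gene start to the first base of the word, those of E(spl)m4-BFM lay 311, 286 and 83 bp upstream. Those of E(spl)m5-HLH lay 309 and 146 bp upstream, and those of E(spl)m8-HLH 224 and 199 bp upstream. In E(spl)m4-BFM and E(spl)m8-HLH a word on the gene strand was followed by one on the opposite strand with 25 bp between their first bases, a spacing also found at E(spl)mgamma-HLH. The nearest IDR summit was at least 3278 bp from the words of E(spl)m4-BFM, 6626 bp from those of E(spl)m5-HLH and 1505 bp from those of E(spl)m8-HLH. In the 500 bp upstream of each gene of the complex, 6 genes had 13 Su(H) words, of which 12 were over 1000 bp from any IDR summit. Outside these stretches only the windows at the IDR summits were searched. The exception, upstream of E(spl)mbeta-HLH, was 123 bp from one. Of the 3 members with a Su(H) word none had an IDR summit in the same 500 bp, while 3 of the 4 members without did. The former follows from the lack of an IDR region in the whole windows of these 3 genes. That lack also sets a lower limit to the distances of their words from an IDR summit. Over all protein-coding genes an IDR summit lay in the 500 bp upstream of 12.2% of the 705 genes with a Su(H) word and of 10.4% of all genes. The pattern was noticed in these data and rests on 7 neighbouring genes, and a match is no evidence that Su(H) was bound in these pupae.

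The other words were found at members with and without an IDR region, some at a larger and some at a smaller share than over all genes. GC content of the 500 bp upstream ranged from 39.6% at E(spl)m7-HLH to 51.2% at E(spl)m4-BFM. The median over all protein-coding genes was 38.4%. Neither these shares nor that of Su(H) words above were adjusted for this difference. Proneural E-boxes occurred upstream of E(spl)m4-BFM, E(spl)m6-BFM, E(spl)m7-HLH and E(spl)m8-HLH, 4 of 7 against 26% of all genes. In E(spl)m7-HLH they lay 231 and 133 bp upstream, the nearer to the summit at 137 bp from it. CACGTG occurred upstream of E(spl)m4-BFM, E(spl)m6-BFM and E(spl)m7-HLH (3 of 7 against 13.9% for either Hairy-related word), and GAGAG upstream of 5 of 7 against 41%. The Zelda word occurred upstream of E(spl)m2-BFM and E(spl)m5-HLH, 2 of 7 against 2.93%. The general site CANNTG occurred at 5 of 7 against 90.2%, with none at E(spl)m2-BFM and E(spl)m3-HLH. The N-box was found at E(spl)m2-BFM, E(spl)m7-HLH and E(spl)m8-HLH, 3 of 7 against 43.4%, and DRE at 0 of 7 against 33.6%. A feature shared by all 7 genes was TATAAA on the gene strand with its first base 20 to 45 bp upstream of the start, at 24 bp in E(spl)m4-BFM and up to 43 bp in E(spl)m8-HLH. Of the other 6 genes of the complex 3 had it, and of all protein-coding genes 8.81%. These bounds were set after the positions were seen. Members with and without an IDR region both had it.

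Genes related to the members by family or pathway were compared by counts. For each list the shares to compare with are 27.6% of all protein-coding genes and 12.8% of the short genes counted above. None of the 4 matched Bearded family genes of the Bearded complex on 3L, Brd, Tom, Ocho and BobA, had an IDR region in its window, and Brd alone had a pooled one. None of 5 Hairy-related HLH genes elsewhere had an IDR region either, although hry, the pair-rule gene hairy, had 4 pooled regions and cwo, a clock repressor gene, had 8. All 4 Bearded complex genes are short, as is 1 of these 5. At the shares above, lists of 4 and 5 genes without an IDR region are not unusual, and no contrast with the complex is drawn. Of 9 genes of proneural HLH proteins and their partners, 2 had one: da, which encodes the common partner Daughterless, with a signal of 324, and emc, which encodes an inhibitor of proneural proteins, with a signal of 373. Neither ac, sc nor l(1)sc, the proneural genes of the achaete-scute complex, had an IDR region. Of 17 Notch signalling genes, 9 had one, against 27.6% of all protein-coding genes. These genes are long, with a median of 6978 bp, and a longer window can hold more summits. The strongest were at the ubiquitin ligase gene neur (signal 2414, rank 82), at mam, which encodes a coactivator of Su(H) (signal 2027, rank 140), at the glycosyltransferase gene fng (signal 1224, rank 482) and at the receptor gene N (signal 1131, rank 574). These summits lay 7453 bp downstream of the gene start at neur, 33974 bp at mam and 27675 bp at N, whereas that of fng was 740 bp upstream. Su(H) itself and H, the gene of its corepressor Hairless, had no region in the IDR or pooled list. Delta, the ligand gene, added after the values were seen by its name in the annotation, had 2 IDR regions, the stronger with a signal of 273 and rank 4381.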

How the data were processed

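The authors deposited region lists on dm6, per the labels: 1 for each of 2 replicates, 1 pooled and 1 IDR list. Per the deposited text files, a control file was used; the sources used here do not give peak caller, aligner or threshold. The deposited signal values, of unstated scale, were used for ranking inside each list alone, with ranks between replicates compared over lists of equal length. In the IDR list every deposited −log10 q-value is the same, and the deposited summit offset (another number, in bp) gave positions. Depth is unknown.

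Genes came from Ensembl release 115 and sequence from the NCBI assembly of the same build; coordinates count from 1. Of 52 list entries 48 matched a gene name or a unique synonym; BobB, BobC, Side and Dl did not. Calculations used Python 3.11.15 with pandas 2.3.3, and region assignment and word search were checked on simulated data. All members and all complex genes are named, and at most 4 genes of each other list by IDR signal; genes named for having no IDR region, and Delta, were chosen after their values were seen. So were the GC, TATAAA and upstream word searches and the comparison of Su(H) words with summits. Members and lists were chosen with earlier results of these data known, so no test was made. Other windows, overlap rules and lists were tried as alternatives.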

Additional observations from a re-analysis of the deposited data

How the results depend on the processing

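The 3 genes with an IDR region, E(spl)m2-BFM, E(spl)m3-HLH and E(spl)m7-HLH, were also those found with windows of 500 and 1000 bp upstream, with an overlap of at least 1 bp or 50% in place of the summit, among the 4002 strongest IDR regions, and in the 8005 strongest regions of either replicate alone. With 5000 bp upstream E(spl)m8-HLH joined them, through the region of E(spl)m7-HLH. The pooled list gave 5 genes. The 5 IDR regions of the windows became 3 with 500 bp and 3 with 1000 bp upstream, since the farther summits of E(spl)m2-BFM and E(spl)m3-HLH fall outside, and 9 in the pooled list. Their median rank percentile of 81.6 was 63.2 within the 4002 strongest IDR regions and 93.5 for the 9 of the pooled list. Shorter and longer lists change it by construction. In the 8005 strongest regions of either replicate alone it was 81.2 to 82.9, and the IDR list selects for such agreement. The density of 21.0 summits per 100 kb in the complex was 15.3 among the 4002 strongest and 55.5 in the pooled list. It was 17.2 to 19.1 in the 8005 strongest regions of either replicate alone. In windows reaching 100 bp to either side of the summits, 4 of the 9 words had more matches, and Su(H), proneural E-box, N-box, DRE and Zelda words still had 0. No paired analysis was possible because the labels give 1 group. Depth is unknown, so a gene without a region may lie below detection.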

Other observations

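Both replicates listed a strong region upstream of E(spl)mdelta-HLH, in an intron of CG43116, that no region of the pooled list overlaps. Its summit lay 1012 bp upstream at rank 879 in replicate 1 and 992 bp upstream at rank 832 in replicate 2. Of the 8005 strongest regions, 307 of replicate 1 and 204 of replicate 2 overlap no pooled region, and 23 and 25 of these overlap a strongest region of the other replicate.

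The IDR region 190 bp upstream of gro and 1306 bp downstream of the E(spl)m8-HLH start ranked 6993 in the IDR list, but 25077 in replicate 1 and 4195 in replicate 2. A pooled region 252 bp upstream of Kaz-m1 ranked 8050, just outside the IDR list, with ranks of 8389 and 8571 in the replicates.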
